A study of Mus musculus with 6 samples.

Results

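The genes described here are the 30 that encode the enzymes and transporters of glycolysis in the testis, among 18976 genes with a probe well above background in testes of wild-type mice and of mice that lack Prss37, a serine protease gene. They comprise the hexokinases to the lactate dehydrogenases, the sugar carriers that bring substrate in and the monocarboxylate carriers that move lactate and pyruvate. The genes were chosen by name, with earlier results of these data known. Of these, 6 are isozymes made largely by developing sperm (Aldoart1, Aldoart2, Gapdhs, Pgk2, Eno4 and Ldhc), and 8 are their counterparts in other cells (Aldoa, Gapdh, Pgk1, Eno1, Eno2, Eno3, Ldha and Ldhb). The array carried 52 probes for the 30 genes, and each of the 30 had at least 1 probe that could be tested.

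Total RNA of whole testes came from 3 males of each genotype, Prss37KO (Prss37-/-) and WT, all on the C57BL/6 background and 6 to 8 weeks old. Each sample was measured on its own single-colour Agilent-014868 mouse array, and the design gives the 3 samples per genotype as separate mice. The labels name neither the part of Prss37 that was deleted nor the litters. In whole testis, fewer cells of a type and less RNA per cell cannot be told apart.

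Glycolysis splits glucose in a chain of enzyme steps into pyruvate and yields ATP without oxygen. Somatic cells and spermatogonia use the common isozymes, while meiotic and later germ cells switch on their own versions of several enzymes, some of them retrogenes that arose from the messenger RNA of the somatic gene. The sperm versions are anchored along the fibrous sheath of the tail, where ATP made on the spot drives swimming, and mice without Gapdhs, Pgk2, Ldhc or Eno4 are known to have sperm that swim poorly.

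Between 69.2% and 71.4% of the spots on each array were well above background, no spot was saturated, and the 75th percentile of the signal lay between 1550 and 1707. All levels below are log2 signals relative to that percentile of their own array, so a level of 0 is the percentile itself. A level depends on the probe and is compared between arrays, never between genes. Prss37 was at 5.39, 5.51 and 5.47 in knockout replicates 1, 2 and 3, and at 6.17, 6.06 and 6.27 in wild-type replicates 1, 2 and 3, a log2 difference of -0.71 (SE 0.07, limma adjusted p = 0.024). Its probe was still well above background in the knockout, and whether it lies in the deleted part is not given. Replicates 1 and 2 of both genotypes shared slide 1, and the 2 arrays of replicate 3 were on slide 2. The tissue label was borne out by its markers, with 14 of 14 round spermatid, 14 of 14 spermatocyte, 13 of 14 Sertoli and 9 of 10 Leydig markers measured. For the epididymis, 2 of 7 markers passed the filter, and Lcn5, Lcn8, Crisp1, Adam7 and Gpx5 did not. Of the markers listed for 13 cell types, Rec8 (spermatocytes, 0.35) and Alas2 (erythroid cells, 0.53) were called higher and Cidea (adipocytes, -0.42) lower.

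The isozymes of a step are close relatives, so the probes decide which gene a value belongs to. The pair printed first is the one in which probes of a testis isozyme and its counterpart cover the same stretch of the transcript. Gapdhs is read on chr7:31514958-31515392 and Gapdh on chr6:125112105-125112274 (mm9, positions as in the scanner files, both wider than the probe). Capitals mark the bases at which the aligned probes differ. The Gapdh probe starts 6 bases further upstream and is the dimmer of the 2 Gapdh probes.
Gapdhs: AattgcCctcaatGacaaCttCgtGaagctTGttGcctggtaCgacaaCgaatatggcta
Gapdh: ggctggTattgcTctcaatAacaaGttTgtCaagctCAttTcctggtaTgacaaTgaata

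Over the 54 aligned bases, 43 were identical and 11 differed, and the longest identical run was 7 bases. For the other pairs of a testis isozyme and a counterpart, the longest run shared by any of their probes was 5 to 9 bases. The next sequences are the starts of the probes behind the aldolase values, the step with the smallest p of the pathway. They are the first 30 bases of the brightest probe of Aldoa on chr7:133938799-133938858, of its testis retrogene Aldoart1 on chr4:72511803-72511862 and of Aldoart2 on chr12:56667635-56667694 (mm9).
Aldoa: caggctctttcccatcactcttgctgctgc
Aldoart1: agagcgaaacaatactatccttctgtttat
Aldoart2: agggtatgtctgtaataccactccagccat

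The longest run common to the probes of Aldoart1 and Aldoa was 5 bases, and 9 bases for those of Aldoart2 and Aldoa. These runs compare probe with probe, in this and the other pairs. How far a probe matches the transcript of the other gene was not tested. The 2 Aldoa probes start 18 bases apart in the transcript (positions 1382 and 1400) and are not independent of each other.

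None of the 30 glycolysis genes differed between knockout and wild-type testes at a limma adjusted p under 0.05, a threshold that 2.46% of all genes passed (1.21% higher and 1.25% lower). Most of the differences were small. In 29 of the 30 genes the log2 difference was under 0.25 in size and in 17 it was under 0.1. The smallest adjusted p was 0.057, for Aldoart1. At an adjusted p under 0.1 there were 4 genes, Aldoart1 and Aldoa above 0 and Slc2a3 and Pfkl below it. That threshold was passed by 9.83% of all genes (5.05% higher and 4.78% lower). An unadjusted p under 0.05 was found for 8 of the 30 (26.7%), against 23.9% of all genes.

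The 3 knockout and 3 wild-type arrays did not overlap in 9 of the 30 genes, against 31.6% of all genes. Of these 9, Aldoa, Aldoart1, Tpi1, Eno4 and Pkm had their knockout arrays on top (15.5% of all genes did), and Pfkl, Pgk1, Slc2a3 and Slc16a7 had them below (16.0% of all genes). These shares are near those of all genes. Differences above 0 were found in 19 of the 30, against 49.3% of all genes, and their median was 0.04, against -0.0024 over all genes. With quantile normalization 15 of 30 were above 0 and the median was -0.00024. In the log2 values deposited by the submitters 16 of 30 were above 0 and the median was 0.0029.

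**Figure D1:**
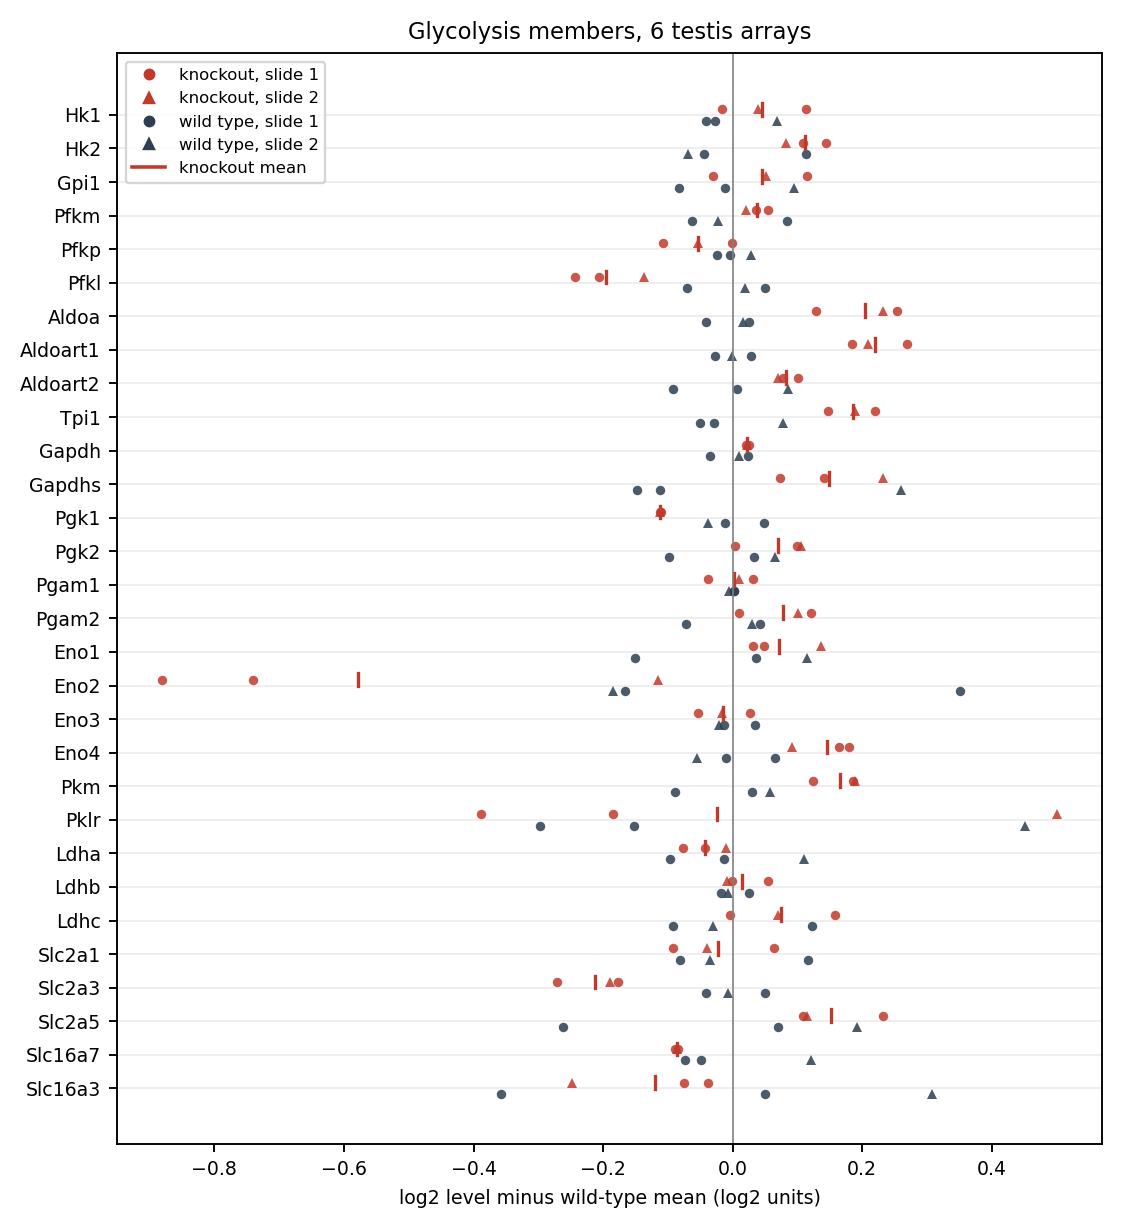
Level of each of the 30 genes on each array, as the log2 level minus the wild-type mean of that gene (x axis, log2 units), with circles for slide 1, triangles for slide 2, and a bar at the knockout mean. Most knockout means lie within 0.25 of the wild-type mean, the knockout arrays lie wholly to the right in Aldoa, Aldoart1, Tpi1, Eno4 and Pkm, and Eno2 and Pklr, both dim, scatter widely.

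Glucose is trapped in the cell by hexokinase. Hk1, the main hexokinase of germ cells, was at 6.64, 6.77 and 6.69 in the knockout and at 6.61, 6.63 and 6.72 in wild type. The groups overlapped, with a log2 difference of 0.05 (SE 0.05, limma adjusted p = 0.66). The array held 6 Hk1 probes. The brightest, whose values these are, was designed on a different Hk1 transcript from the other 5. It is read on chr10:61731916-61731975 (mm9) and begins with the bases below, printed to tell it from the others.
Hk1: ggaaaacatcttgtctccatcttgctagga

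The other 5 Hk1 probes had log2 differences between 0.09 and 0.33, all above 0, and in 2 of them the knockout arrays lay wholly above the wild-type arrays. The probe with 0.33 (SE 0.12) was at 1.78, 1.86 and 1.95 in the knockout and at 1.54, 1.31 and 1.75 in wild type. Its adjusted p over all probes was 0.18. Hk2, the hexokinase of muscle and fat, had a difference of 0.11 (SE 0.06, limma adjusted p = 0.31) with overlapping groups.

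Gpi1, which turns glucose 6-phosphate into fructose 6-phosphate, had a difference of 0.05 (SE 0.06). A second, dim Gpi1 probe, designed on another transcript record, gave -0.19 (SE 0.10) with overlapping groups. Phosphofructokinase then commits the sugar to glycolysis, and its 3 subunit genes had different signs. Pfkl, the liver-type subunit, was at -1.38, -1.42 and -1.31 in the knockout and at -1.12, -1.24 and -1.15 in wild type. The knockout arrays all lay below the wild-type arrays, with a difference of -0.20 (SE 0.05, limma adjusted p = 0.097), -0.22 on slide 1 and -0.16 on slide 2. Pfkm, the muscle-type subunit, had 0.04 (SE 0.05). Pfkp, the platelet-type subunit, had -0.05 (SE 0.04) at its brightest probe. A second Pfkp probe, designed on another transcript record, gave -0.39 (SE 0.10, adjusted p over all probes 0.10). It was at 0.36, 0.59 and 0.56 in the knockout and at 1.08, 0.84 and 0.76 in wild type, so its groups did not overlap while those of the brightest probe did.

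Aldolase splits the sugar into 2 triose phosphates, and Tpi1 interconverts them. All 4 genes of this stretch (Aldoa, Aldoart1, Aldoart2 and Tpi1) had differences above 0, with a median of 0.20, against 49.3% above 0 over all genes. That share was larger among bright genes. Aldoa lay above a mean level of 6, where 74.9% of all genes were above 0. Aldoart2 and Tpi1 lay between 4 and 6 (67.2%) and Aldoart1 between 2 and 4 (55.2%). In 3 of the 4 the groups did not overlap, against 31.6% of all genes. Aldoa was at 6.55, 6.68 and 6.66 in the knockout and at 6.45, 6.38 and 6.44 in wild type. Every knockout array lay above every wild-type array, a 1.15-fold level (log2 difference 0.20, SE 0.05, limma adjusted p = 0.082). The second Aldoa probe gave 0.19 (SE 0.05).

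Aldoart1 had the smallest p of the 30 genes. It was at 3.33, 3.41 and 3.35 in the knockout and at 3.12, 3.17 and 3.14 in wild type, again without overlap. The level in the knockout was 1.17-fold that of wild type (log2 difference 0.22, SE 0.04, 95% interval 0.12 to 0.32, limma adjusted p = 0.057). On slides 1 and 2 it was 0.23 and 0.21, and with any 1 array left out 0.20 to 0.24. Aldoart2, the other testis aldolase, was at 5.72, 5.74 and 5.71 in the knockout and at 5.55, 5.65 and 5.73 in wild type. Its groups overlapped through wild-type replicate 3, and its difference was 0.08 (SE 0.05).

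Tpi1, on chr6:124760947-124761006 (mm9), was at 5.31, 5.39 and 5.36 in the knockout and at 5.14, 5.12 and 5.24 in wild type. The groups did not overlap, with a difference of 0.19 (SE 0.05, limma adjusted p = 0.10), 0.22 on slide 1 and 0.11 on slide 2. A second, dim Tpi1 probe gave 0.36 (SE 0.14) with overlapping groups. With array weights Aldoa, Aldoart1 and Tpi1 passed the test (adjusted p of 0.037, 0.028 and 0.035). A robust fit with a variance trend called Aldoa and Aldoart1 (0.042 and 0.021). Both settings called more genes of every kind. Array weights called 1217 genes higher and 1060 lower, and the robust fit 691 and 579. The fit without either called 230 and 237 of 18976.

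The oxidation of glyceraldehyde 3-phosphate is the step at which sperm depend on their own enzyme, Gapdhs. It was at 6.70, 6.77 and 6.86 in the knockout and at 6.48, 6.52 and 6.89 in wild type. Wild-type replicates 1 and 2 were lowest and replicate 3, on slide 2, was the highest of all 6 arrays. The difference was 0.15 (SE 0.12, 95% interval -0.14 to 0.44, limma adjusted p = 0.50), 0.24 on slide 1 and -0.03 on slide 2. Without wild-type replicate 3 it was 0.28. A second Gapdhs probe gave 0.17 (SE 0.12). Gapdh was at 3.94 on all 3 knockout arrays and at 3.88, 3.94 and 3.93 in wild type, a difference of 0.02 (SE 0.04), and its second probe gave 0.05 (SE 0.05).

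Phosphoglycerate kinase makes the first ATP of the pathway. Pgk1 is X-linked and falls silent with the X chromosome in meiosis, and Pgk2 is an autosomal retrogene of it that germ cells use instead. Pgk1 was at 1.59 on all 3 knockout arrays and at 1.75, 1.69 and 1.66 in wild type. The knockout arrays lay below the wild-type ones, with a difference of -0.11 (SE 0.04, 95% interval -0.21 to -0.01, limma adjusted p = 0.17). Both Pgk1 probes are placed by the scanner files on chromosome 3 (chr3:57906703-57906762 and chr3:57906681-57906740, mm9), while RefSeq has the gene on X. They were matched to Pgk1 through their transcript record, and whether a copy of the gene adds to their signal was not tested. The second probe, which covers nearly the same bases, gave -0.07 (SE 0.06) with overlapping groups. Pgk2 was at 6.63, 6.73 and 6.74 in the knockout and at 6.53, 6.66 and 6.70 in wild type, a difference of 0.07 (SE 0.06) with overlap.

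Pgam1 and Pgam2 move the phosphate of phosphoglycerate, Pgam2 being the form of muscle and sperm. Their differences were 0.0014 (SE 0.04) and 0.08 (SE 0.05), and both overlapped. Enolase follows. Eno4, the enolase of the sperm tail, was at 2.20, 2.19 and 2.11 in the knockout and at 2.09, 2.01 and 1.97 in wild type. All knockout arrays lay above the wild-type arrays, with a difference of 0.15 (SE 0.05, limma adjusted p = 0.16) and 0.14 and 0.15 on slides 1 and 2. Eno1, the common form, had 0.07 (SE 0.08) and Eno3, the muscle form, -0.01 (SE 0.04).

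Eno2, the neuronal form, had the largest difference of the 30, -0.58 (SE 0.24, limma adjusted p = 0.22), at the bottom of the signal range. It was at -5.74, -5.88 and -5.12 in the knockout and at -4.65, -5.17 and -5.19 in wild type, the groups overlapped, and it was 0.07 on slide 2. It was well above background on 2 of 3 knockout and 3 of 3 wild-type arrays, so it entered the test through the wild type only. The other 29 genes were well above background on all 6 arrays. Pyruvate kinase closes the pathway. Pkm was at 2.51, 2.57 and 2.57 in the knockout and at 2.41, 2.29 and 2.44 in wild type, without overlap, a difference of 0.17 (SE 0.05, limma adjusted p = 0.14). The other 2 Pkm probes gave 0.14 and 0.01. Pklr, the liver and red cell form, was dim, with -0.02 (SE 0.29) and both slide 2 arrays above the other 4.

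Lactate dehydrogenase returns NAD to the pathway. Ldhc, the germ cell form, was at 7.44, 7.60 and 7.51 in the knockout and at 7.56, 7.35 and 7.41 in wild type. The groups overlapped, with a difference of 0.07 (SE 0.07, 95% interval -0.10 to 0.25, limma adjusted p = 0.58), -0.03 with quantile normalization and -0.03 in the deposited table. Ldha was at 6.47, 6.43 and 6.50 in the knockout and at 6.41, 6.49 and 6.62 in wild type, a difference of -0.04 (SE 0.06). Ldhb had 0.01 (SE 0.04).

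Among the carriers, Slc2a3 (GLUT3, a high-affinity glucose transporter of germ cells) had the smallest p. Its brightest probe on chr6:122678075-122678134 (mm9) was at 5.89, 5.98 and 5.97 in the knockout and at 6.21, 6.12 and 6.15 in wild type. No knockout array reached the lowest wild-type array, and the level was 1.16-fold lower (log2 difference -0.21, SE 0.05, 95% interval -0.33 to -0.10, limma adjusted p = 0.071). On slides 1 and 2 it was -0.23 and -0.18, and with any 1 array left out -0.23 to -0.18. Slc2a3 passed the test in 4 alternatives. Its limma adjusted p was 0.041 after quantile normalization and 0.044 in the deposited table. It was 0.033 in a robust fit with a variance trend and 0.034 with array weights. Over all 18976 genes, quantile normalization called 230 higher and 232 lower, and the deposited log2 values called 258 higher and 250 lower. The robust fit called 691 and 579, and array weights 1217 and 1060. The other tested Slc2a3 probe, dim and on a different transcript record, gave 0.17 (SE 0.21), so the mean of both probes was -0.02. One more Slc2a3 probe, which the scanner files place on chromosome 17, did not pass the background flag on a single array.

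Slc2a1 (GLUT1, the common glucose carrier) had -0.02 (SE 0.07). Slc2a5 (GLUT5, the fructose carrier) was at 5.96, 6.08 and 5.97 in the knockout and at 5.92, 5.59 and 6.04 in wild type, a difference of 0.15 (SE 0.12) with overlap, and 0.02 without wild-type replicate 2. Of the lactate carriers, Slc16a7 (MCT2) was at 4.37, 4.36 and 4.37 in the knockout and at 4.40, 4.38 and 4.57 in wild type. Its groups did not overlap, but the difference of -0.09 (SE 0.06) was -0.03 without wild-type replicate 3. Slc16a3 (MCT4) had -0.12 (SE 0.17) with overlap.

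**Figure D2:**
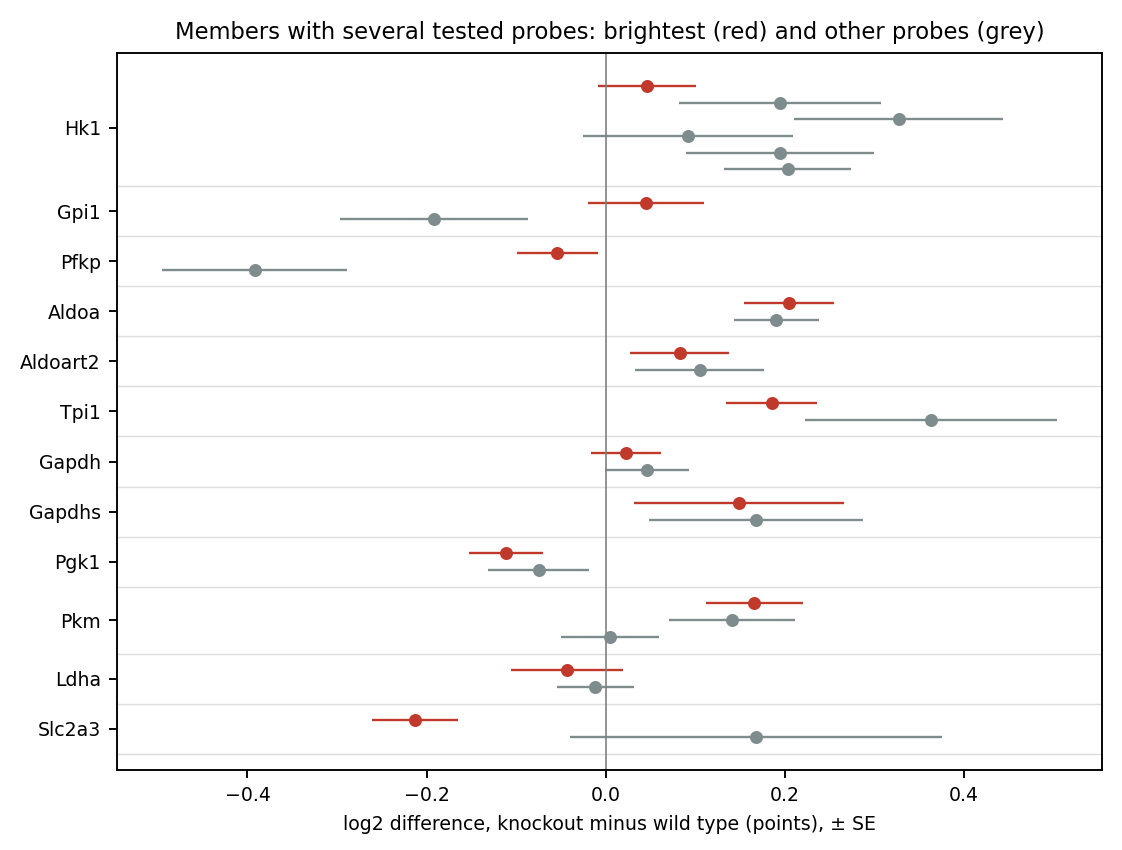
Log2 difference, knockout minus wild type, of every tested probe (x axis, log2 units, points with bars of 1 SE) of the genes with several tested probes, the brightest probe in red and the others in grey. Both probes of Aldoa and of Gapdhs lie close together, the other Hk1 probes lie to the right of the brightest, and the other probes of Pfkp and Slc2a3 lie away from the brightest on opposite sides. The brightest Gpi1 probe lies to the right of 0 and the other to its left.

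The 6 testis isozymes were set beside their somatic counterparts. All 6 had differences above 0, with a median of 0.11 (49.3% of all genes were above 0), while 5 of 6 were above 0 with quantile normalization and in the deposited table and 4 of 6 on slide 2. This holds for the 6 listed only. Ldhal6b, a lactate dehydrogenase gene outside the 30, had -0.10 (SE 0.05, limma adjusted p = 0.25), with every knockout array below the wild-type arrays. The 8 counterparts had 4 above and 4 below, with a median of -4.8e-05. In 2 of the 6 isozymes (33.3%) and 2 of the 8 counterparts (25%) the groups did not overlap, both near the 31.6% of all genes. Markers of the germ cells that carry the isozymes are given by stage and were not matched for brightness. Over all genes the share above 0 rose with brightness, to 67.2% at mean levels of 4 to 6 and 74.9% above 6. Of the spermatocyte markers 7 of 14 were above 0 (median 0.0096). An unadjusted limma p under 0.05 was found in 6, against 23.9% of all genes, and Rec8 was called higher. Without overlap were 3 higher and 3 lower (42.9%, against 31.6% of all genes). Of the round spermatid markers 12 of 14 were above 0 (median 0.09) and of the elongating spermatid markers 9 of 12 (median 0.09). Limma called none of either list, with an unadjusted p under 0.05 in 5 of 14 and 1 of 12. Of the round spermatid markers 8 lay wholly higher and 1 wholly lower in the knockout (64.3%). Of the elongating spermatid markers 1 lay wholly higher and 1 wholly lower (16.7%). The summed signal of the round spermatid markers, in multiples of the 75th percentile, was 378 to 387 in the knockout and 345 to 374 in wild type, without overlap. That of the spermatocyte markers was 171 to 173 against 161 to 166, also without overlap. Such a sum follows its brightest markers. Rec8, among the brightest of the spermatocyte list, was at 5.16, 5.17 and 5.13 in the knockout and at 4.72, 4.88 and 4.82 in wild type. With Rec8 left out, the spermatocyte sums of the 2 genotypes overlapped. The summed signal of the elongating spermatid markers was 1552 to 1741 against 1563 to 1638, and that of the 6 isozymes 444 to 478 against 419 to 458, both with overlap. The spermatogonia markers, 4 of 8 above 0, summed to 21.0 to 21.7 in the knockout and 23.2 to 24.96 in wild type, and the Sertoli markers, 10 of 13 above 0 (median 0.05), to 147 to 149.5 and 138 to 141, neither with overlap. Taken singly, 3 Sertoli markers lay wholly higher and 3 wholly lower in the knockout (46.2%, against 31.6% of all genes). Of the spermatogonia markers 0 lay wholly higher and 3 wholly lower (37.5%). All 10 macrophage markers were above 0 (median 0.24), and 5 lay wholly higher and 0 wholly lower (50%). Their summed signal was 14.6 to 16.9 in the knockout and 11.3 to 14.0 in wild type. An unadjusted limma p under 0.05 was found in 5 of 10, against 23.9% of all genes, but none was called. The part of these cells in the values of the 30 genes was not tested.

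Within each array the log2 signal of an isozyme minus that of its counterpart removes what scales both alike. Only the change of this ratio between genotypes is read here, since its size depends on the probes. It was compared in 12 pairs by an exact two-sided permutation test over the 6 arrays, which cannot give a p below 0.1 with 3 against 3. Pgk2 over Pgk1 was the one pair of the 12 that reached that floor with 75th percentile scaling. Its log2 ratio was 5.05, 5.14 and 5.15 in the knockout and 4.78, 4.98 and 5.03 in wild type. The knockout arrays lay above the wild-type arrays by 0.18 on average (exact p = 0.1, 0.8 adjusted over the 12 pairs), 0.21 on slide 1 and 0.12 on slide 2. Which pair separated depended on the scaling. With quantile normalization Pgk2 over Pgk1 overlapped (0.13, exact p = 0.2), and Aldoart1 over Aldoa (0.05), Slc2a3 over Slc2a1 (-0.24) and Hk1 over Hk2 (-0.12) reached the exact p of 0.1. In the deposited table Pgk2 over Pgk1 (0.15), Slc2a3 over Slc2a1 (-0.23) and Hk1 over Hk2 (-0.10) did.

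The other ratios overlapped between genotypes with 75th percentile scaling. Gapdhs over Gapdh differed by 0.13, with 2.76, 2.83 and 2.92 in the knockout and 2.60, 2.57 and 2.96 in wild type. Ldhc over Ldha differed by 0.12 and Ldhc over Ldhb by 0.06. Aldoart1 over Aldoa differed by 0.02, since both aldolases had nearly the same difference, and Aldoart2 over Aldoa by -0.12. Eno4 over Eno1 differed by 0.07 and Pgam2 over Pgam1 by 0.08. Among the carriers and hexokinases, Slc2a3 over Slc2a1 differed by -0.19, Slc2a5 over Slc2a1 by 0.17, Slc16a7 over Slc16a3 by 0.03 and Hk1 over Hk2 by -0.07. Exact p-values of these 11 ran from 0.2 to 0.8 and their adjusted p was 0.8.

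**Figure D3:**
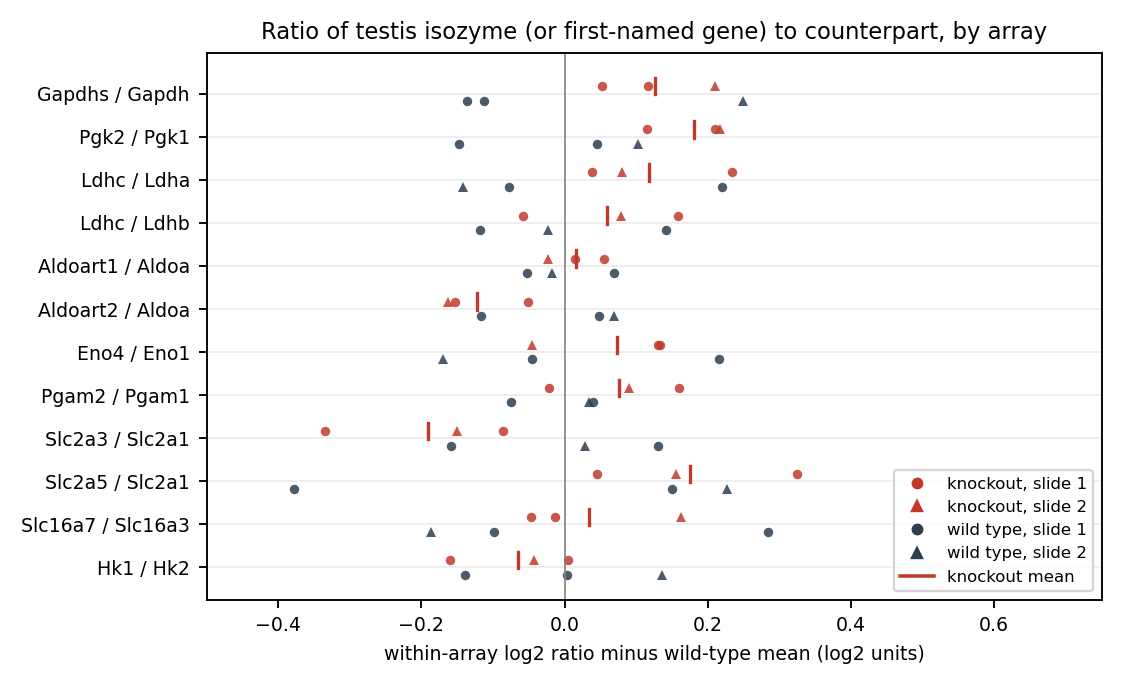
Within-array log2 ratio of the first-named gene to the second in 12 pairs, minus the wild-type mean of that ratio (x axis, log2 units, 75th percentile scaling), with circles for slide 1, triangles for slide 2, and a bar at the knockout mean. In Pgk2 over Pgk1 the 3 knockout arrays lie to the right of the 3 wild-type arrays, and in each other pair the genotypes overlap.

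The promoters of Pgk1 and Pgk2 are shown because theirs was the pair whose ratio did not overlap with 75th percentile scaling, and because they show how far a retrogene can differ from its source in the bases around the start. Each run spans 250 bases before to 50 after the start of the transcript (RefSeq, GRCm38.p6), on the plus strand for Pgk1 (chrX:106186850-106187149) and the minus strand for Pgk2 (chr17:40208560-40208859). Capitals mark matches, on either strand, to any of 6 motifs. These were the GC box, spelled GGGCGG, the CCAAT box of those letters, the core of the hypoxia response element, spelled ACGTG, and the TATA box, spelled TATAAA. Also searched were the cyclic AMP response element, spelled TGACGTCA, and its shorter core, spelled TGACG, which the longer motif contains on both strands.
Pgk1: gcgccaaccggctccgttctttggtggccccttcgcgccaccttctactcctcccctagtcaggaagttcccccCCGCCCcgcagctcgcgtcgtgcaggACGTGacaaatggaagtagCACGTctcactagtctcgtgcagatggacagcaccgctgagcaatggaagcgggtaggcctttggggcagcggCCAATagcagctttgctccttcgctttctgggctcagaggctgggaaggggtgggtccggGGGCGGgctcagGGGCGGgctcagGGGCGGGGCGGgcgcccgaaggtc
Pgk2: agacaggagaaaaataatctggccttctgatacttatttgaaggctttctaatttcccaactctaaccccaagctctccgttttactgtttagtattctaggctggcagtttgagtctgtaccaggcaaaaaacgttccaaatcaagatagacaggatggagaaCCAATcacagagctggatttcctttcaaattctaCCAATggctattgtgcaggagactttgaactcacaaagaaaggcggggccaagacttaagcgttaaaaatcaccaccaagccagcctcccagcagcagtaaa

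The Pgk1 run held 5 GC boxes, the last 2 sharing a base, 1 CCAAT box and 2 hypoxia cores, and 24 CpG sites. The Pgk2 run held 2 CCAAT boxes, 86 and 52 bases before the start, none of the other motifs, and 4 CpG sites. Among 32851 promoters of this length, the GC box was found in 35.7%, the CCAAT box in 37.4%, the hypoxia core in 19.6%, the TATA box in 13.6%, the shorter cyclic AMP motif in 20.8% and the longer in 1.79%. Of the 30 genes, 27 had a promoter in the RefSeq table (not Aldoart1, Slc2a3 or Slc16a7). The median number of CpG sites, taking the most upstream start of a gene, was 9 in the 5 testis isozymes found and 14.5 in the 8 counterparts, against 7 over all promoters. In the lactate dehydrogenase pair, the Ldha promoter held the longer cyclic AMP motif 12 bases before the start. The Ldhc promoter held the shorter one 61 and 47 bases before it and not the longer. These matches describe the letters and were not related to any difference.

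The differences varied with the brightness of the probe. Among all genes the median difference was -0.03 below a mean level of -2, 0.01 between levels of 2 and 4, 0.03 between 4 and 6 and 0.04 above 6, where 74.9% of 219 genes were above 0. Of the 30 glycolysis genes, 9 had mean levels above 6, among them Gapdhs, Pgk2 and Ldhc. The median difference of these 9 was 0.07, with 7 above 0, and with quantile normalization it was 0.0048, where that of the 219 genes was -0.0081. Aldoart1, Aldoa, Tpi1 and Slc2a3 kept differences of 0.20, 0.15, 0.15 and -0.26 after quantile normalization.

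The wider set of glucose genes gave 1 call. Of 91 other genes of glucose metabolism 79 could be tested. The gene called was Slc2a4 (GLUT4, the insulin-regulated glucose carrier of muscle and fat), which was lower in the knockout. It was at -2.73, -2.77 and -2.74 in the knockout and at -2.41, -2.50 and -2.52 in wild type, a 1.21-fold lower level (log2 difference -0.27, SE 0.05, limma adjusted p = 0.046). It kept its call with a stricter filter on dim probes and with array weights, and lost it in the other alternatives at this threshold, with any 1 array left out among them. Markers of adipocytes, cells that carry Slc2a4, had a summed signal of 6.75 to 6.78 in the knockout and 7.08 to 8.02 in wild type. Of these markers 2 of 7 were above 0. The brightest of them, Cidea and Adipoq, went opposite ways, both without overlap. Cidea was called lower (-0.42), and Adipoq had 0.28 (SE 0.21, limma adjusted p = 0.47). With Cidea left out, the adipocyte sums of the genotypes overlapped. Skeletal muscle markers summed to 0.617 to 0.630 in the knockout and 0.610 to 0.648 in wild type. The part of adipocytes and muscle in the Slc2a4 value was not tested. The groups did not overlap in 25 of the 79 genes (31.6%, as over all genes), an unadjusted p under 0.05 was found in 14, against 23.9% of all genes, and the median difference was 0.01.

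In the other lists no gene passed the test. Of 16 regulators, 9 were above 0. Pfkfb4, which sets the level of the activator of phosphofructokinase, had -0.23 (SE 0.05, limma adjusted p = 0.063) with every knockout array below the wild-type arrays. Pdk4, a brake on the entry of pyruvate into mitochondria, had 0.67 (SE 0.19, limma adjusted p = 0.11) at a low level, between -3.80 and -3.06 in wild type and between -2.91 and -2.62 in the knockout. Of 15 genes of gluconeogenesis and glycogen, 7 were above 0, and the smallest p belonged to the glycogen branching enzyme Gbe1 (0.17, SE 0.05) and the glucose 6-phosphatase G6pc3 (0.10, SE 0.04).

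Of 11 pentose phosphate genes 7 were above 0, with Tktl1, a transketolase-like gene, at -0.19 (SE 0.04, limma adjusted p = 0.063) and Pgd, the 6-phosphogluconate dehydrogenase, at -0.11 (SE 0.05). Of 10 genes for the entry of other sugars 7 were above 0. Sord, which makes fructose from sorbitol, had 0.26 (SE 0.06, limma adjusted p = 0.078), with 6.02, 6.07 and 6.06 in the knockout and 5.77, 5.69 and 5.90 in wild type. Galm, which interconverts the forms of galactose, had -0.13 (SE 0.06). Of 11 genes of the glycerol phosphate and redox shuttles 5 were above 0. Gpd1, the cytosolic glycerol 3-phosphate dehydrogenase, had 0.17 (SE 0.04, limma adjusted p = 0.069), and the glycerol kinase Gk had -0.25 (SE 0.06, limma adjusted p = 0.078), both without overlap.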

How the data were processed

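Testis RNA of 3 Prss37 knockout and 3 wild-type mice had been labelled with Cy3 and hybridised to Agilent-014868 arrays. The intensity of each spot was deposited as Agilent Feature Extraction 10.7.3.1 had written it, with background already subtracted, per the file headers (version 10.7 per the submitters' processing notes). Quality flags, positions and probe names of the same files were used as deposited by the authors. A deposited table of log2 values, whose columns share a median of 7.72 and nearly the same sorted values, served as an alternative. Its processing is not given in the sources used here.

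Samples were grouped by title. In the knockout samples, 1 label field names Prss55 in place of Prss37. Control and outlier-flagged spots (86 to 159 per array) were dropped. Log2 processed signals minus the array's 75th percentile were averaged per probe. A probe was tested if well above background on every array of at least 1 genotype. Each of the 18976 genes was read from its brightest tested probe. Current symbols came from a RefSeq gene table (GRCm38.p6). The genotypes were compared gene by gene with lmFit and eBayes of limma 3.58.1 in R 4.3.3. P-values were adjusted by Benjamini and Hochberg's method across every gene tested, and a gene was called at an adjusted p under 0.05. Isozyme ratios were compared by exact permutation. The fit was tested on simulated data. With 3 arrays per genotype, the array number limits the precision.

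The rule for names took all 30 glycolysis genes, Prss37, called markers, and from each other list its called genes, or the 2 with the smallest p where it had none. Ldhal6b and Adipoq were named besides, because they went the other way from the set or sum beside them. The members and lists were chosen with earlier results of these data known. Same-numbered replicates of the genotypes deviated together with correlations of -0.028, -0.027 and 0.164, so the numbers were not taken to pair the mice.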

Additional observations from a re-analysis of the deposited data

How the results depend on the processing

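No gene of the 30 was called in the replicate block fit, with the slide as a block, with normexp, median centring, no filter, flagged spots kept, a stricter filter, probes averaged or kept apart, or with any 1 array left out. Elsewhere the counts were 0 higher and 1 lower after quantile normalization or in the deposited table, 2 higher and 1 lower with a variance trend, 3 higher and 1 lower with array weights, and 2 higher and 2 lower at an adjusted p under 0.1. The cause was not tested. Of the other glucose genes 1 had been called lower. None was with normexp, quantile normalization, median centring, the deposited table, no filter, flagged spots kept, averaged probes, the replicate block or the slide block. Probes kept apart called 1 lower, a Pgm2l1 probe at -0.37 (adjusted p over all probes 0.041), while the brightest probe of that gene gave 0.10. Leaving out 1 array gave 0 to 1 higher and 0 to 0 lower, the variance trend 2 higher (Sord and Gpd1) with Pfkfb4 as the 1 lower, array weights 2 higher and 3 lower, and an adjusted p under 0.1 gave 2 higher and 4 lower. Over all genes, calls were 0 higher and 2 lower with the replicate block, 30 and 49 with the slide block, 691 and 579 with the variance trend, 1217 and 1060 with array weights, 125 and 150 with averaged probes, 2 and 6 without a filter, and from 0 higher and 2 lower to 463 higher and 358 lower with 1 array left out. Probes kept apart gave 132 and 161 called probes.

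The median difference of the 30 genes, 0.041, was 0.070 with normexp, -0.00024 with quantile normalization, 0.0029 in the deposited table, 0.071 on slide 1, 0.0082 on slide 2 and 0.013 to 0.068 with 1 array left out. The count of genes with all knockout arrays on top was 4 with median centring and ran from 5 to 9 with 1 array left out. The 9 came without wild-type replicate 3, where 23.8% of all genes had them on top.

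None of the values whose sign turned had been called. On slide 2 (1 array per genotype) differences turned to -0.015 in Aldoart2, 0.070 in Eno2, 0.0042 in Eno3, -0.027 in Gapdhs, -0.044 in Gpi1, -0.028 in Hk1, -0.0021 in Ldhb, 0.050 in Pklr and -0.076 in Slc2a5, and on slide 1 to -0.0055 in Pgam1 and 0.098 in Slc16a3. Quantile normalization gave -0.012 in Hk1, -0.0048 in Ldhb, -0.028 in Ldhc and -0.024 in Pgam1, and the deposited table -0.0042 in Ldhb, -0.031 in Ldhc and -0.027 in Pgam1. Averaged probes gave -0.073 in Gpi1. Normexp gave -0.0052 in Pgam1 and 0.049 in Pklr, and array weights 0.0080 in Ldha, -9.3e-07 in Pfkm, -0.00053 in Pgam1 and 0.30 in Pklr. With 1 array left out, Eno1 ran from -0.0031 to 0.13, Eno3 from -0.035 to 0.0047, Ldha from -0.091 to 0.012, Ldhb from -0.0050 to 0.028, Pgam1 from -0.014 to 0.021, Pklr from -0.29 to 0.20, Slc16a3 from -0.30 to 0.034 and Slc2a1 from -0.066 to 0.036.

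Ratio changes turned sign on slide 2 for Aldoart1 over Aldoa (-0.0062), Gapdhs over Gapdh (-0.039) and Slc2a5 over Slc2a1 (-0.072), and on slide 1 for Slc16a7 over Slc16a3 (-0.12). Normexp gave -0.021 for both Aldoart1 over Aldoa and Slc16a7 over Slc16a3. Averaged probes gave 0.065 for Hk1 over Hk2 and 0.00017 for Slc2a3 over Slc2a1. Ldhc over Ldhb was -0.023 with quantile normalization and -0.027 in the deposited table. With 1 array left out Aldoart1 over Aldoa ran from -0.010 to 0.050, Eno4 over Eno1 from -0.012 to 0.18, Slc16a7 over Slc16a3 from -0.059 to 0.18, Slc2a5 over Slc2a1 from -0.014 to 0.29 and Hk1 over Hk2 from -0.14 to 0.0026. Pgk2 over Pgk1 ran from 0.11 to 0.23 in the 18 alternatives run, but its genotypes overlapped after quantile normalization (exact p = 0.2), where Aldoart1 over Aldoa, Slc2a3 over Slc2a1 and Hk1 over Hk2 reached 0.1. Signal limits Eno2, which 1 knockout array did not place well above background. With averaged probes Slc2a3 was -0.022 and Hk1 0.18. A lone array on slide 2 has no spread of its own.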
